A study of Mus musculus with 19 samples.

Results

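The regions described here are Cbx7 binding sites of control mouse embryonic stem cells (ESC) at which no Ring1B site was listed in any ESC sample. They were chosen by 1 rule: a peak of the Cbx7 list that shared no base pair with any peak of the Ring1B lists of control, hairpin 2 and hairpin 4 ESC. The rule took 6765 of 12454 Cbx7 peaks, out of 76793 peaks in the 9 lists of the study, and left 5689 Cbx7 peaks that shared a Ring1B site. The choice therefore rests on measured peaks, and the absence of ESC Ring1B at these sites is not a result. In the text they are called Cbx7-only sites, a name that says nothing of Ring1B below the calling threshold.

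The study followed the nuclear pore protein Nup153 with RNA-seq (5 libraries), ChIP-seq (8, of which 1 was input) and DamID-seq (6), in ESC and in neural progenitors (NeuP). All ESC libraries were labelled as line E14. The ESC of the RNA, Cbx7, Ring1B and Oct4 ChIP samples carried a lentiviral hairpin and had been under puromycin for at least 4 days. It was a non-target hairpin in the control (1 RNA, 1 Cbx7 and 1 Ring1B library). In the knockdown it was hairpin 2 or hairpin 4 against Nup153 (1 RNA and 1 Ring1B library each). Oct4 was mapped by ChIP in control and hairpin 2 ESC. NeuP (2 RNA libraries, 1 Ring1B library) carried no hairpin, came through embryoid bodies and Noggin, and were kept in FGF2 and EGF. Their line of origin is not given in the labels. The ESC were cultured on irradiated mouse fibroblasts. In DamID, ESC without a hairpin expressed a bacterial DNA methylase fused to Nup153, to Oct4 or to GFP, from a vector with a heat shock promoter, and each of the 2 lists stands for 2 replicates. Nothing in the labels says that replicates were separate cultures, so p-values measure only the spread between these samples.

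Polycomb repressive complex 1 (PRC1) is built on Ring1A or Ring1B, E3 ligases that put ubiquitin on histone H2A. In canonical PRC1 a Cbx subunit reads the methyl mark that PRC2 leaves on histone H3, and Cbx7 is the main Cbx protein of ESC. Canonical PRC1 sits mostly at CpG-rich promoters of silent developmental genes, among them the HOX clusters. Ring1B is also part of variant PRC1, which holds no Cbx protein.

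Promoter sequences are shown for 4 genes near Cbx7-only sites, to let the reader see how unlike these promoters were in CpG content. Each is the run of 250 bases before the gene's start in RefSeq, build GRCm38.p6, on the gene's own strand, in lower case with every CpG in capitals. Windows were matched by gene symbol, so this start need not be the one from which the distance of a site was measured. Mt2, a metallothionein, had the highest RNA level of these genes in control ESC. Ptn (pleiotrophin, a secreted growth factor) and Lrrn1 (a leucine-rich repeat membrane protein) had the largest rises in NeuP, and Sec22b (a SNARE of the early secretory pathway) lay nearest to the longest Cbx7-only site on a nuclear chromosome. The windows lie at chr8:94172368-94172617 (Mt2, plus strand), chr6:36810180-36810429 (Ptn, minus strand), chr6:107529476-107529725 (Lrrn1, plus strand) and chr3:97900977-97901226 (Sec22b, plus strand).
Mt2: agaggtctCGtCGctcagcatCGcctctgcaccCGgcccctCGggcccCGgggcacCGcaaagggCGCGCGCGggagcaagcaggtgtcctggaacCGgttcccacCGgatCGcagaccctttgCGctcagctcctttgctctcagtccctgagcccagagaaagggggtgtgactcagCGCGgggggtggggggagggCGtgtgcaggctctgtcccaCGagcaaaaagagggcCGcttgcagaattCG
Ptn: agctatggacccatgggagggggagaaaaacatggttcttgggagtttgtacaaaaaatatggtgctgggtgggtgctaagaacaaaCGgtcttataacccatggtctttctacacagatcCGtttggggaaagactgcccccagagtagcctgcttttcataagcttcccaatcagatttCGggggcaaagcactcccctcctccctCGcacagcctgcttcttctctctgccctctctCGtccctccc
Lrrn1: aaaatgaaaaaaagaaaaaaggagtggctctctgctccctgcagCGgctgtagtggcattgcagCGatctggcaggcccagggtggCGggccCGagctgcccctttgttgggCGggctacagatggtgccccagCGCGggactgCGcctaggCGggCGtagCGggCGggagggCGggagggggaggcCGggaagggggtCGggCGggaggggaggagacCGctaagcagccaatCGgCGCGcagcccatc
Sec22b: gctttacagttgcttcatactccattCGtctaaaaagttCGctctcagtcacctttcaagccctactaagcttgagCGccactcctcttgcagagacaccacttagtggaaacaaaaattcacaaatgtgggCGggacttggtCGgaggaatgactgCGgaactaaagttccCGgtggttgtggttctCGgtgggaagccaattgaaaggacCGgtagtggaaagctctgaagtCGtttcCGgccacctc
The Mt2 window holds 21 CpG and the Lrrn1 window 20, against 5 in the Ptn window and 11 in the Sec22b window. The Ptn count is below the lower quartile of the genes near Cbx7-only sites given next, and the other 3 lie between the quartiles.

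A pair of mature microRNAs is shown as well, because the gene Mir9-2 lies under a long Cbx7-only site and was one of the few such genes also overlapped by Ring1B in NeuP and by Oct4 DamID. Mir9-2 is 1 of the genes that encode miR-9, a microRNA of neural progenitors. The seed, bases 2 to 8, is in capitals (RefSeq, chr13:83738821-83738843 and chr13:83738858-83738879 in GRCm38.p6, plus strand).
mmu-miR-9-5p: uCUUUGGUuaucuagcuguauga
mmu-miR-9-3p: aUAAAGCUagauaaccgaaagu
The arms have different seeds, and the RNA table, made from polyadenylated RNA, has 1 value for the gene and none for each arm.

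A promoter window was matched by symbol for 750 of the 1067 genes with a start within 2 kb of a Cbx7-only site (70.3%). The median was 13 CpG per window, with quartiles of 7 and 23, beside 10.0 over 16842 windows of all transcripts, 16 at genes near Cbx7 sites with Ring1B and 17 at genes with ESC Ring1B but no Cbx7 site. Windows with 10 or more CpG made up 62.9% (Wilson 95% interval 59.4 to 66.3) of the Cbx7-only genes and 71.6% (69.2 to 73.8) of the genes at shared Cbx7 sites. Where a Cbx7-only site lay over the start itself (107 matched genes), the median was 8 CpG and 36.4% (27.9 to 45.9) had 10 or more, against 51.2% of all windows. All intervals on shares in the text are of this kind and cover counting error only.

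Of the motifs searched on both strands, the GC box GGGCGG was in 56.5% of the Cbx7-only windows, beside 43.4% of all windows and 59.8% at shared Cbx7 genes. The CCAAT box (CCAAT) was in 27.6% (24.5 to 30.9), beside 36% of all windows and 35.8% at shared genes. The ETS core CCGGAAG was in 4.67% (3.37 to 6.42), beside 9.10% of all windows and 3.11% at shared genes. The TATA box TATAAA was in 8.67% against 11.9% of all windows, the E-box CACGTG in 7.47% against 6.86%, the YY1 core AANATGGC in 2.53% against 3.88%, the NRF1 core GCGCATGC in 2.40% against 3.09%, the CRE TGACGTCA in 1.47% against 2.07% and the octamer ATTTGCAT in 1.07% against 1.54%. The E2F core TTTCGCGC was in 2 windows and the CTCF core in 3. A match describes letters and is not a bound site, and the motifs can overlap CpG and each other.

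The libraries differed widely in depth. The Cbx7 list came from 22.5 M tags, and the Ring1B lists from 4.99 M in control ESC, 30.8 M with hairpin 2, 9.95 M with hairpin 4 and 33.2 M in NeuP. The Ring1B lists covered 22.2%, 39.3% and 24.0% of Cbx7 peaks in control, hairpin 2 and hairpin 4 ESC, so the deepest ESC library covered the most, and depth and hairpin cannot be told apart. The RNA libraries held 24.3 to 32.2 M fragments. Markers followed the labels: 5 ESC markers summed to between 1035 and 1188 FPKM (fragments per kilobase of transcript and M fragments) in the 3 ESC libraries and to 113 and 87.5 in NeuP, while 6 neural progenitor markers summed to between 108 and 127 in ESC and to 3660 and 4051 in NeuP.

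Cbx7-only sites were short. Of the 6765, 5246 (77.5%, 76.5 to 78.5) had the shortest length in the list, 501 bp, against 28.8% (27.6 to 30.0) of the shared Cbx7 sites, whose median was 795 bp. Domains of 2 kb or more numbered 50 (0.739%), against 1395 (24.5%) of the shared sites, and the longest on a nuclear chromosome was 5220 bp against 36505 bp. A longer peak has more base pairs that can meet a Ring1B peak, so the rule itself favours short sites. Its part in the difference of length was not tested. Because length differed so much between the classes, each overlap below is also given for sites of 501 bp alone.

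The sites just inside and just outside the rule were close together. The nearest Cbx7-only site lay 1 bp from an ESC Ring1B peak, 55 lay within 100 bp and 595 (8.80%) within 1 kb, while the smallest overlap that placed a peak among the shared sites was 2 bp. Of the shared sites, 26 were covered by 50 bp or less, and 5015 (88.2%) by at least 50 percent of their length. The median Cbx7-only site was 19082 bp from the nearest ESC Ring1B peak, and 88.4% had one within 100 kb. These distances come from the rule and describe it.

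Most Cbx7-only sites lay away from transcription start sites. Within 2 kb of a start of the 24016 tabled transcripts were 15.6% (14.7 to 16.4) of them, against 41.2% (39.9 to 42.5) of shared Cbx7 sites. Directly over a start were 155 (2.29%) against 18.5%. Another 38.7% lay inside a gene beyond 2 kb of any start and 45.8% outside genes, against 25.4% and 33.4% of the shared sites. Exon and intron limits were not used here. At the length of 501 bp, 11.5% (10.7 to 12.4) of Cbx7-only sites and 19.7% (17.9 to 21.7) of shared sites were within 2 kb of a start. The position of the Cbx7-only sites was close to that of the whole control Ring1B list, of which 16.1% lay within 2 kb of a start. With 1 Cbx7 library there is no error between replicates for any of these shares.

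Few Cbx7-only sites held Ring1B in NeuP. Of the 6765, 191 (2.82%, 2.45 to 3.25) overlapped a NeuP Ring1B peak, against 656 of the 5689 shared sites (11.5%, 10.7 to 12.4). At 501 bp the shares were 2.10% (1.74 to 2.52) and 5.19% (4.22 to 6.38). Near starts they were 4.18% (3.13 to 5.57) and 18.2% (16.7 to 19.8). The 191 NeuP peaks hit were 1.31% of the NeuP Ring1B list. That list covered 11127146 bp, and the share at random sites was not computed. The difference between the classes was thus smaller at equal length, and the intervals did not overlap in any of the 3 settings.

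Listed Oct4 ChIP peaks rarely overlapped Cbx7-only sites. The control Oct4 list was small, covering 258774 bp at an IP efficiency of 0.17%, against 13671608 bp and 4.29% for Cbx7. A site outside so small a list may still hold Oct4, and the share at random sites was not computed. Oct4, the POU factor that holds ESC pluripotent, had 1462 ChIP peaks in control ESC, of which 4 overlapped a Cbx7-only site (0.0591% of the sites, 0.0230 to 0.152), while 507 shared sites (8.91%, 8.2 to 9.68) had one. With hairpin 2 the counts were 7 (0.103%) and 595 (10.5%). At 501 bp, 3 Cbx7-only sites (0.0572%) and 170 shared sites (10.4%, 9.0 to 12) held control Oct4. Within 2 kb of a start, 0 of 1052 Cbx7-only sites had control Oct4, with an upper limit of 0.364%, and 37 of 2343 shared sites (1.58%, 1.15 to 2.17). Beyond 2 kb the shares were 0.0700% (0.0272 to 0.180) and 14.0% (12.9 to 15.3). The difference was thus at least as large at equal length as over all lengths, and much smaller near starts, where shared sites held little Oct4 too.

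Both DamID lists overlapped fewer Cbx7-only sites than shared sites. The lists covered 10404531 bp (Nup153) and 10685095 bp (Oct4), and the share at random sites was not computed. Nup153 DamID overlapped 71 sites (1.05%, 0.833 to 1.32) against 7.95% (7.27 to 8.68) of the shared sites, and Oct4 DamID 72 (1.06%, 0.846 to 1.34) against 8.75% (8.05 to 9.52). There were 20 sites with both. At 501 bp the Nup153 shares were 0.934% and 8.74%, and the Oct4 shares 0.991% and 12.2%. Within 2 kb of a start, Nup153 DamID was at 2.57% (1.77 to 3.71) of Cbx7-only sites and 7.34% (6.35 to 8.47) of shared sites. Oct4 DamID was there at 1.14% (0.654 to 1.98) and 2.60% (2.03 to 3.33), a smaller gap than over all positions.

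**Figure D1:**
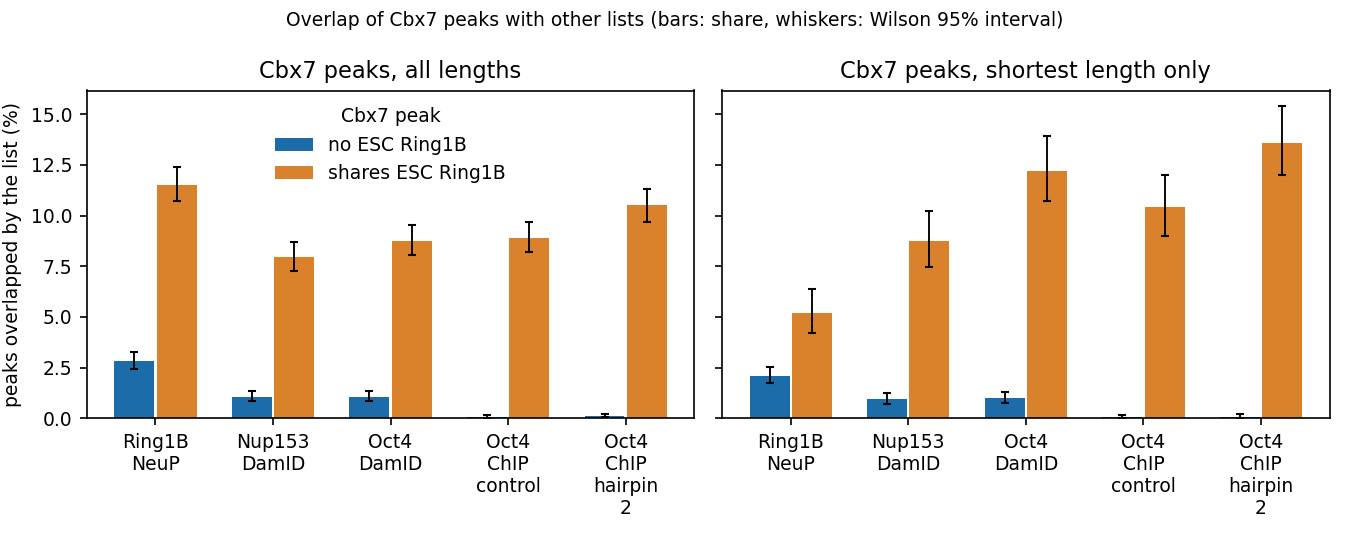
Share of Cbx7 peaks overlapped by at least 1 bp by each of 5 lists that did not enter the choice of the sites, for peaks without ESC Ring1B (blue) and peaks that share it (orange), over all lengths at left and at the shortest length of 501 bp at right; whiskers are Wilson 95% intervals. Every blue bar is lower than its orange neighbour, from 2.82% against 11.5% for NeuP Ring1B to 0.0591% against 8.91% for control Oct4 ChIP.

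Of the 8 genes with Nup153 DamID on the longest Cbx7-only sites, 5 were under 1 FPKM in control ESC. Tulp1 (a tubby-like protein of photoreceptors; site of 2205 bp over the start) had 0.356 FPKM in control ESC, 0.596 and 0.532 in the knockdown and 0 and 0.0210 in NeuP. Slc5a7, the choline transporter of cholinergic neurons, was at or below 0.00800 FPKM in each library. Mmd2, a membrane protein of the progestin and adipoQ receptor family, had 0.369, 0.541 and 0.404 FPKM in the 3 ESC libraries and 73.8 and 28.8 in NeuP (log2 change 5.11 ± 0.62 SE, limma adjusted p = 0.00919). Atp8a1, a phospholipid flippase, had 1.53 to 2.59 FPKM in ESC and 22.7 and 17.2 in NeuP (log2 change 3.04 ± 0.24 SE, limma adjusted p = 0.00421). Esam, an adhesion molecule of endothelial cells, fell in NeuP, from 2.07 to 0.337 and 0.313 FPKM (log2 change -1.21 ± 0.19 SE, limma adjusted p = 0.0156). For Mmd2, Atp8a1 and Esam the NeuP values lay outside the ESC values. Atp8a1 and Esam had an ESC Ring1B peak within 2 kb of the start, while Tulp1, Slc5a7 and Mmd2 had none. Mmd2 and Atp8a1 each lost the call in 4 of 11 alternative fits (limma adjusted p up to 0.103 and 0.0714), and Esam kept it in all 11. At starts with control Oct4 ChIP there was no gene to name.

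Chromosomes 6, 8 and 12 held an excess of Cbx7-only sites. Together they held 1858 sites, 27.5% (26.4 to 28.5), against 19.2% (18.2 to 20.3) of the shared Cbx7 sites and 13.5% of the tabled transcripts. The 3 ESC Ring1B lists had 22.6%, 20.6% and 22.2% of their peaks there, the NeuP Ring1B list 13.4%, Nup153 DamID 16.5% and Oct4 DamID 19.8%. Of all Cbx7 peaks, 61.2% on chromosome 6, 61.8% on chromosome 8 and 66.3% on chromosome 12 were Cbx7-only, against 46.4% to 57.5% on the other numbered chromosomes and X.

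**Figure D2:**
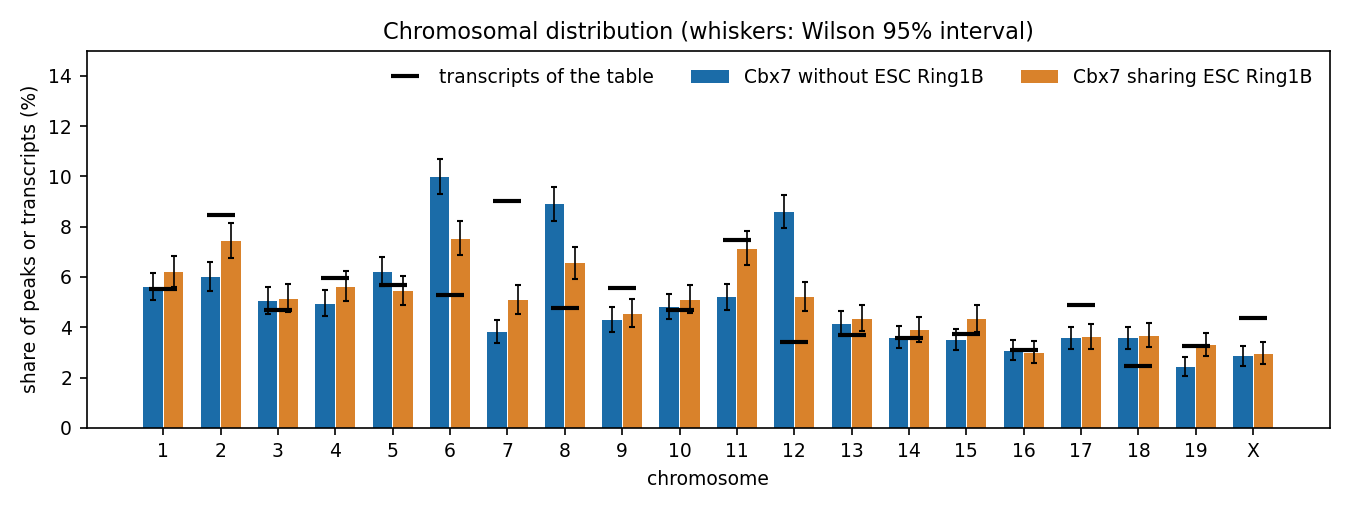
Share of Cbx7 peaks on each chromosome, for peaks without ESC Ring1B (blue) and peaks that share it (orange), with Wilson 95% intervals, and the share of tabled transcripts (black lines). The blue bars stand highest on chromosomes 6 (9.99%), 8 (8.90%) and 12 (8.57%), above both the orange bars and the transcript shares.

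In the NeuP comparison, RNA of chromosomes 8 and 12 lay below the median of all genes, and RNA of chromosome 6 above it. The median log2 difference of NeuP from control ESC was -0.71 over 737 expressed genes of chromosome 8 and -0.54 over 514 genes of chromosome 12, beside -0.26 over all 13750 genes tested and -0.14 over 674 genes of chromosome 6. In the knockdown the medians were 0.11, 0.10 and 0.03, beside 0.08 over all genes. The karyotype of the ESC is not given in the labels, and the part of chromosome copy number in these shares was not tested.

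The densest cluster of Cbx7-only sites within a gene was in Nup153 itself, the target of the hairpins. The gene (NM_175749, mm9 chr13:46775271-46823218, minus strand) held 13 Cbx7-only sites among 14 Cbx7 peaks in 47.9 kb, or 27.1 per 100 kb, spread from 0.175 to 46.7 kb from its start and 501 to 1921 bp long. NeuP Ring1B had 13 peaks in the gene, and 12 of the 13 Cbx7-only sites overlapped one, with a median distance between centres of 71 bp. The Ring1B lists of ESC had 0 peaks in the gene in the control and 1 each with hairpins 2 and 4, and Oct4 ChIP of control ESC and both DamID lists had 0. The coding sequence of Nup153 had also been cloned for the DamID fusion, reads were not examined here, and whether these peaks mark bound protein was not tested. These 12 sites are part of the 191 above. Without the sites of this gene, 179 Cbx7-only sites (2.65%) held NeuP Ring1B.

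**Figure D3:**
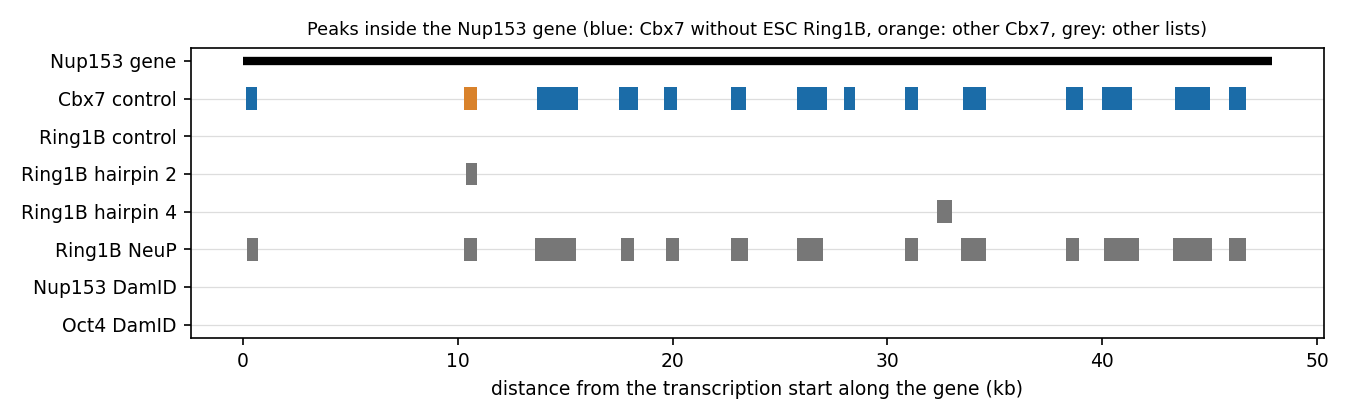
Peaks inside the Nup153 gene by list, drawn to scale against the distance from the transcription start in kb, with the 13 Cbx7-only sites in blue, the other Cbx7 peak in orange and peaks of other lists in grey. The Cbx7 and NeuP Ring1B rows hold peaks at nearly the same places along the whole gene, while the control Ring1B row and both DamID rows are empty.

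RNA was read at the 1067 genes with a start within 2 kb of a Cbx7-only site, which lay by 1052 of the sites. Of these genes, 398 also had an ESC Ring1B peak within 2 kb of the start and 669 had none, and 199 had a shared Cbx7 peak there as well. In control ESC, 414 of the 1067 (38.8%, 35.9 to 41.8) had 1 FPKM or more, against 48.7% of all transcripts. The share was 30.3% (28.4 to 32.3) at genes near shared Cbx7 sites alone and 78.6% (77.3 to 79.8) at genes with ESC Ring1B and no Cbx7 site. Among the 669 genes with no ESC Ring1B near the start it was 32.7% (29.3 to 36.4). The median level was 0.417 FPKM in control ESC, 0.596 and 0.568 with hairpins 2 and 4, and 0.448 and 0.454 in NeuP. Over all transcripts the median was also higher with both hairpins: 0.830 in control ESC, 1.07 and 1.05 with hairpins 2 and 4, and 0.475 and 0.485 in NeuP. Most genes near these sites were thus at a low level in control ESC. The share at 1 FPKM was above that of genes near shared sites over all 1067, but for the 669 without ESC Ring1B the intervals overlap.

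**Figure D4:**
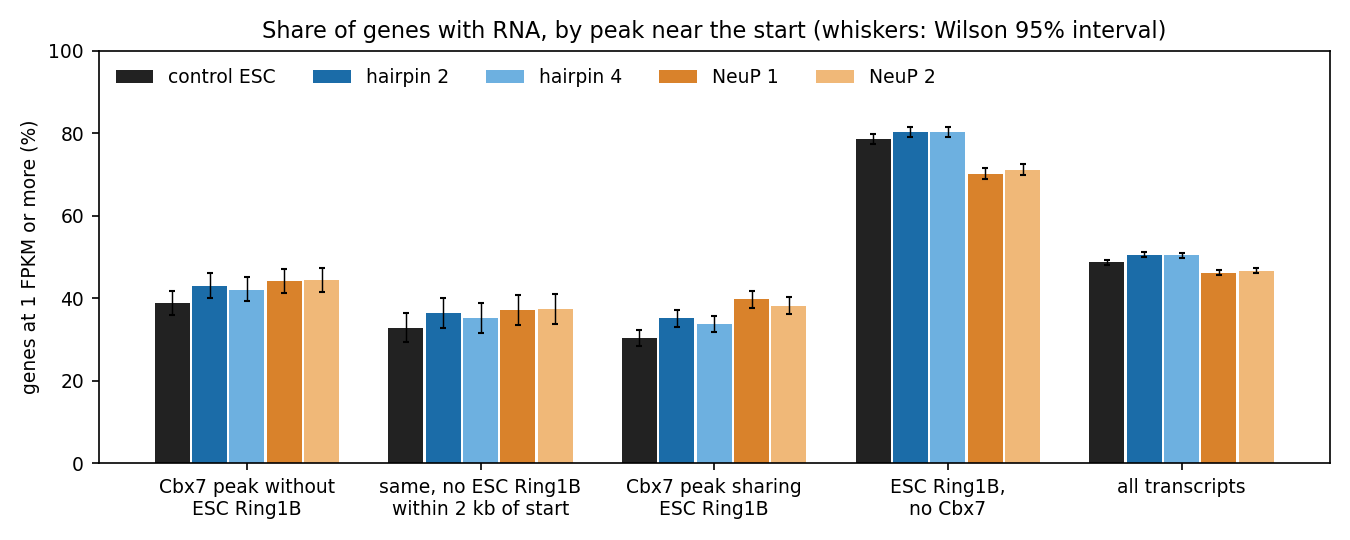
Share of genes at 1 FPKM or more in each of the 5 RNA libraries, by the peaks within 2 kb of the start, with Wilson 95% intervals. In control ESC the genes near Cbx7-only sites stand at 38.8%, between the genes near shared Cbx7 sites (30.3%) and all transcripts (48.7%), and genes with Ring1B and no Cbx7 stand highest at 78.6%.

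A number of highly expressed genes had a Cbx7-only site nearby. Mt2 had 670 FPKM in control ESC, 538 and 402 with hairpins 2 and 4 and 426 and 5.46 in NeuP, so 1 NeuP library lay within the ESC range and the other far below it. Pttg1 (securin) had 269, 238 and 247 FPKM in the 3 ESC libraries and 1.87 and 73.1 in NeuP. Dazl, an RNA-binding protein of germ cells, had 180, 105 and 124 in ESC. Serbp1 (170), Eif3c (162), Anxa2 (157) and Hmgn1 (123) followed by control FPKM, with their sites 1.95, 1.5, 0.175 and 0.826 kb from the start. Rpl7 (293), a ribosomal protein with many processed copies in the genome, had its site 1.83 kb away, and reads of such copies may be counted with it. All these sites but that of Dazl (1098 bp) were 501 bp long, and none of the 8 lay over the start. Rpl7, Pttg1, Dazl, Serbp1 and Eif3c also had an ESC Ring1B peak within 2 kb of the start, while Mt2, Anxa2 and Hmgn1 had none.

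HOX genes had no Cbx7-only site within 2 kb of the start (0 of 42), while 41 (97.6%) were near a shared Cbx7 site. The counts were 0 of 29 neural progenitor genes (22 near a shared site), 0 of 22 mesoderm and endoderm genes (19) and 0 of 27 pluripotency genes (7). Over all transcripts, 4.44% were near a Cbx7-only site and 8.77% near a shared one but no Cbx7-only site. The list of signalling receptors and ligands had 17 of 126 (13.5%, 8.60 to 20.5), with 49 near shared sites. The 17 include Notch2, but also Bmp1, a protease that matures collagens, and Bmp2k, a kinase, so the list is wider than its name. Of 23 PRC1 genes, 1 had a site (Bmi1, a PCGF subunit; 4.35%), and of 11 PRC2 genes 0. Nucleoporins had 2 of 26 (Nup153, Nup210), ribosomal proteins 3 of 104, zinc finger genes 13 of 434, replication-dependent histones 1 of 68, microRNA and small nucleolar RNA genes 16 of 1196, olfactory and vomeronasal receptors 5 of 1452, neuron genes 1 of 16 (Syt1) and feeder fibroblast genes 3 of 22 (Thbs1, Col1a1, Loxl1).

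NeuP and control ESC were compared to ask how genes near these sites stood in a neural cell type. Of the 1067 genes, 619 passed the filter of 1 FPKM in at least 1 library, 448 did not, and 141 of the 619 passed only through NeuP, so that these had to differ upward. Another 110 passed only through ESC libraries and had to differ downward. In limma, 222 of the 619 rose and 121 fell at an adjusted p under 0.05, where 18.3% of all genes tested rose and 24.9% fell. Among the 414 genes at 1 FPKM or more in control ESC, 97 rose and 111 fell (23.4% and 26.8%), beside 12.5% and 28.0% of all such genes. At genes near shared Cbx7 sites, 39.1% of those tested rose and 24.3% fell. The counts depended on which libraries entered the fit: without hairpin 2 the numbers were 43 higher and 80 lower (6.95% and 12.9%, beside 2.32% and 11.0% of all genes in that fit), and without hairpin 4 they were 43 and 79 (beside 2.31% and 10.9%). With only control and NeuP in the fit they were 31 and 86 (5.01% and 13.9%, beside 1.75% and 11.8%). Without NeuP replicate 1 or 2, the p-values hold no spread between NeuP libraries, so no counts are given for these fits. The median log2 difference of genes near Cbx7-only sites was 0.67 and 0.63 there, beside -0.16 and -0.32 over all genes tested. Both fits are among the alternatives counted for single genes in the text. With no filter the split was 163 higher and 174 lower (15.3% and 16.3%, beside 7.86% and 14.6%). In each fit with counts given here the share of higher calls was above that of all genes. The share of lower calls was below that of all genes in the main fit (19.5%, beside 24.9%). It was above that of all genes without either hairpin, with only control and NeuP in the fit, and with no filter. The control has 1 library, which the knockdown comparison shares.

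Ptn and Lrrn1 had the largest rises of these genes in NeuP. Ptn had 0.0200 FPKM in control ESC, 0.0640 and 0.526 in the knockdown and 404 and 422 in NeuP (log2 change on FPKM + 1 of 8.66 ± 0.29 SE, limma adjusted p = 0.00238). Lrrn1 had 0.147, 0.718 and 0.878 FPKM in ESC and 318 and 211 in NeuP (7.83 ± 0.32 SE, limma adjusted p = 0.00238). The 2 cell types did not overlap for either gene, and each stayed called in all 11 alternative fits. Ednrb (endothelin receptor B) went from 0.0100 to 192 and 89.8 FPKM, Scrg1 from 0 to 78.3 and 40.2, Wscd1 from 1.42 to 150 and 81.4, Sdc3 (syndecan 3) from 2.19 to 211 and 93.9, and Nnat (neuronatin, an imprinted gene) from 2.58 to 95.7 and 199. These 5 had log2 changes of 5.28 to 7.03 and were called in 7 to 9 of the 11 alternatives, with adjusted p of up to 0.0589 (Ednrb), 0.0640 (Scrg1), 0.0634 (Wscd1), 0.0844 (Sdc3) and 0.0795 (Nnat) in limma. Sites lay over the start only for Wscd1 (1985 bp) and Nnat (501 bp). Lrrn1 and Ednrb had an ESC Ring1B peak within 2 kb of the start, and the other genes of this paragraph had none.

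Dazl, Krt18 and Perp had the largest falls. Dazl was at 0.0430 FPKM in both NeuP libraries (log2 change -7.44 ± 0.21 SE, limma adjusted p = 0.00238). Krt18, a keratin of simple epithelia, had 75.7, 45.6 and 45.4 FPKM in ESC and 0 and 0.0300 in NeuP (-6.24 ± 0.17 SE, limma adjusted p = 0.00238). Perp, a desmosome protein, went from 45.2 in control ESC to 0.0490 and 0.109 in NeuP, Timp1, an inhibitor of metalloproteases, from 118 to 2.95 and 1.93, and Bst2 (tetherin) from 34 to 0.123 and 0.326. Their log2 changes were -5.42, -5.13 and -4.84, and these 5 genes were called in all 11 alternatives. Pmaip1 (Noxa) had 57.0 FPKM in control ESC and 0.0940 and 1.23 in NeuP (-5.21, limma adjusted p = 0.00623), and was called in 7 of 11 (adjusted p up to 0.0794). H19, an imprinted RNA, had 74.1, 121 and 94.5 FPKM in ESC and 0.143 and 3.07 in NeuP (-5.12 ± 0.86 SE, limma adjusted p = 0.0181), and lost its call in 5 of 11 alternatives (adjusted p up to 0.139). Mir675 lies within H19, so its reads (26.6 FPKM in control ESC, 0 in both NeuP libraries) cannot be told apart from those of its host. The site of H19 was 635 bp long and 0.535 kb from the start. All genes of this paragraph but Perp also had an ESC Ring1B peak within 2 kb of the start.

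Markers of other cell types also moved between these samples. Of the 6 feeder fibroblast markers the sum was 5.79 to 9.88 FPKM in ESC and 38.7 and 84.8 in NeuP, with Lum at 0 in at least 1 library. The sum does not speak for each marker: Col1a1 had 1.82, 4.77 and 3.24 FPKM in ESC and 0.375 and 1.53 in NeuP. In NeuP, 2 and 1 of the 6 were under 1 FPKM, against 3 in each ESC library. The sum of 4 neuron markers went from between 10.5 and 15.7 to 247 and 135. The 4 primitive endoderm markers summed to 22.5 in control ESC, 31.9 and 44.0 in the knockdown and 13.2 and 12.7 in NeuP, with Gata4 and Sox17 at 0 in at least 1 library. Their part in the results was not tested. In such bulk samples, fewer cells of a type and less RNA per cell cannot be told apart.

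Genes whose own Cbx7-only site held Ring1B in NeuP numbered 47, of which 40 passed the filter. An ESC Ring1B peak lay within 2 kb of the start at 23 of the 47, among them Lrrn1, Cdh20, Cdh4, Gria4, Cacng4 and Rgma, but not Ptn, Scrg1 or Wscd1. Of these, 26 rose and 4 fell (65.0% and 10.0%), with a median log2 difference of 2.12, against 18.3% and 24.9% of all genes tested. Genes that passed the filter only through NeuP are among them, so the count is a description. The share is close to that of shared Cbx7 genes with NeuP Ring1B, of which 59.0% rose and 10.9% fell, and higher than that of genes with NeuP Ring1B and neither ESC mark, of which 25.3% rose and 11.9% fell. The difference between these shares was not tested. Besides Ptn, Lrrn1, Scrg1 and Wscd1, the genes that rose include cadherins and a receptor subunit. The cadherins Cdh20 (0.0110 FPKM in control ESC, 12.4 and 18.9 in NeuP) and Cdh4 (0.293 against 9.85 and 22.6) rose, with limma adjusted p of 0.00384 and 0.0133. Gria4, an AMPA receptor subunit, had 0.0290 against 13.4 and 22.5 (limma adjusted p = 0.00480), and Cacng4, an auxiliary protein of such receptors, 0.161 against 20.5 and 12.4 (limma adjusted p = 0.00535). Rgma, a guidance molecule, had 0.793 against 100 and 25.8 (limma adjusted p = 0.0213). The 4 that fell were Anxa2, Chchd7, Etnk2 and Plag1. These 5 rises were called in 6 or 7 of the 11 alternatives, with adjusted p of up to 0.154 in limma.

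Mir9-2, whose sequence is given above, had a site of 2088 bp over its start that overlapped both NeuP Ring1B and Oct4 DamID. It was listed at 0 FPKM in the 3 ESC libraries and at 25.4 and 8.12 in NeuP (log2 change 3.96 ± 0.70 SE, limma adjusted p = 0.0207; up to 0.150 over the alternatives, of which 5 of 11 kept the call). A gene this short collects few fragments, so its FPKM is coarse. Mir9-2 had no ESC Ring1B peak within 2 kb of the start, unlike Bmi1 and Bmp1, which are given next. Bmi1, with a site of 2195 bp at 0.895 kb, rose from 4.52 FPKM in control ESC to 36.7 and 37.3 in NeuP (2.78 ± 0.19 SE, limma adjusted p = 0.00351; up to 0.0512, called in 8 of 11 alternatives). Bmp1 rose from 4.55 to 60.6 and 30.4 (2.99 ± 0.47 SE, limma adjusted p = 0.0158; up to 0.134, called in 6 of 11).

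**Figure D5:**
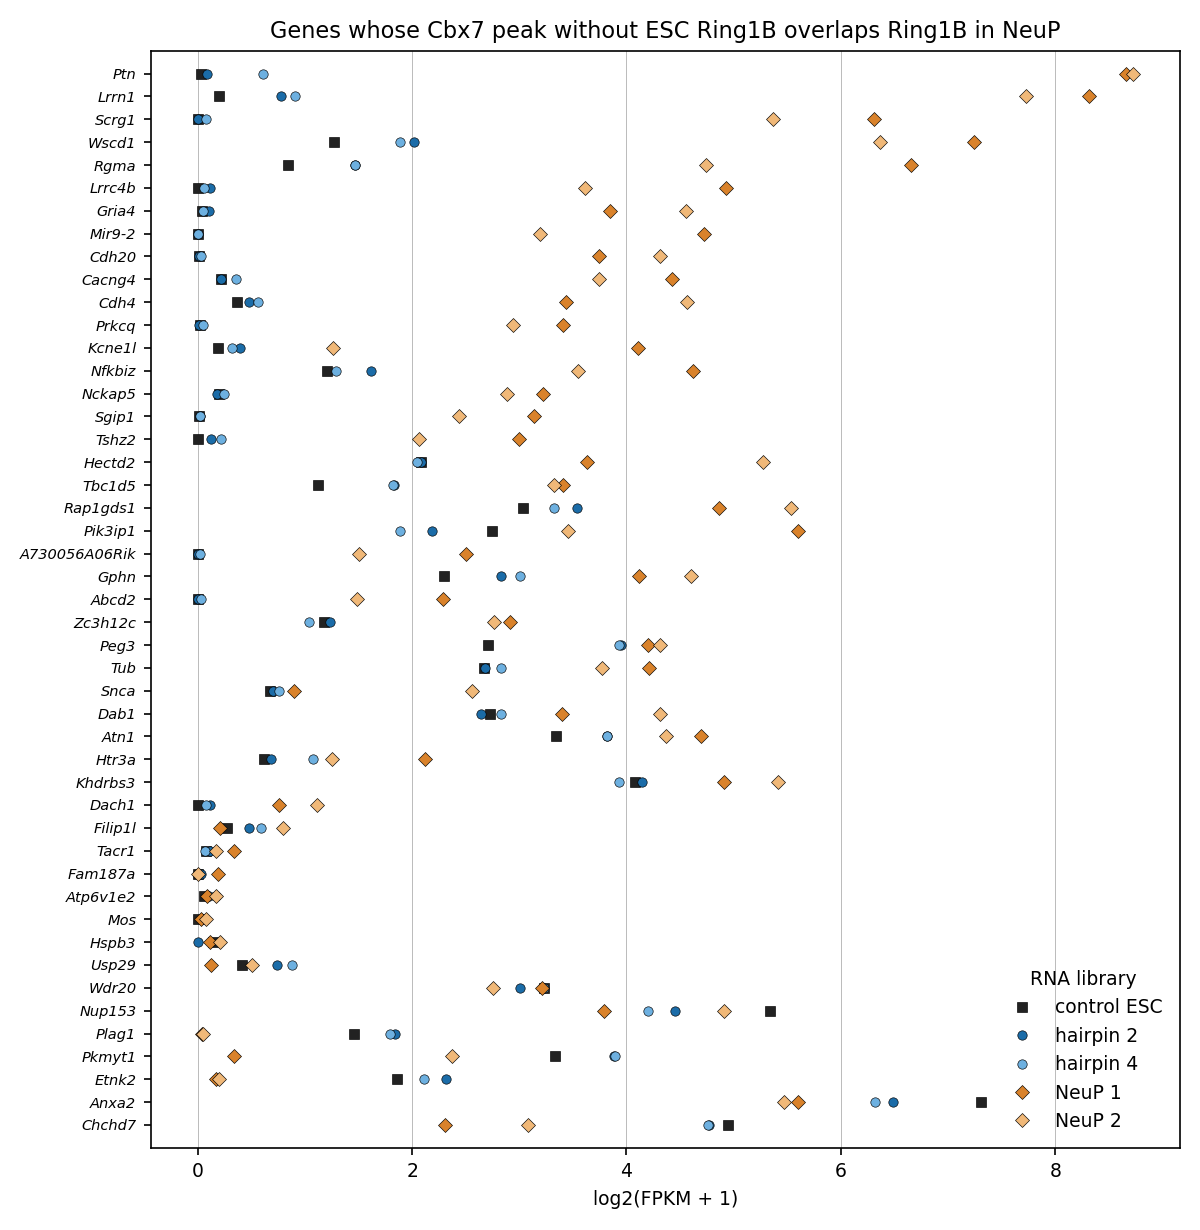
RNA level, as log2(FPKM + 1), of the 47 genes whose Cbx7-only site overlaps a NeuP Ring1B peak, in each of the 5 RNA libraries, ordered by the difference of NeuP from control ESC. At the top, from Ptn to Cdh4, both NeuP libraries lie far right of the 3 ESC libraries, while Chchd7, Anxa2 and Etnk2 at the bottom lie to the left.

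The knockdown was compared with control ESC to ask whether genes near Cbx7-only sites moved when Nup153 was lowered. The target had 39.4 FPKM in control ESC and 20.9 and 17.4 with hairpins 2 and 4 (log2 change -1.01 ± 0.55 SE, limma adjusted p = 0.897), so both knockdown libraries lay below the control. No gene was called in limma, near a site or elsewhere (0% of 13750). At an unadjusted p under 0.05 in limma were 814 of the 13750 genes, and 46 of the 619 near Cbx7-only sites. The smallest adjusted p over all genes was 0.825, and voom called 0 genes as well. With only the ESC libraries in the fit and the filter unchanged, 0 genes were called (smallest limma adjusted p = 0.0822). When these libraries also set the filter, a setting chosen after seeing the data, 2710 genes were called, 21.8% of 12436. Of the 478 genes near these sites in that fit 109 were called (78 higher, 31 lower), or 22.8%, close to the share of all genes. With no filter, 230 were called (0.958% of 24016), 8 of them near these sites (0.750% of 1067). By size on FPKM + 1, 4 of the 619 genes were at least 2-fold higher with both hairpins (0.646%, beside 0.305% of all genes tested) and 0 were at least 2-fold lower (0.160% of all): Magi3, Peg3, Pkd2 and Pth1r. The added 1 FPKM shrinks folds of low genes, and on FPKM itself (chosen after seeing the data) 61 were at least 2-fold higher (9.85%, beside 4.68% of all genes tested) and 5 at least 2-fold lower (0.808%, beside 0.669%). Of the 61, 53 were under 1 FPKM in control ESC. At 1 FPKM or more in control ESC, 8 of 414 were higher (1.93%), beside 1.29% of all such genes.

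The genes with the highest log2 changes in the knockdown had levels above the single control with both hairpins. Peg3, an imprinted zinc finger gene, had 5.55 FPKM in control ESC, 14.4 and 14.2 with hairpins 2 and 4, and 17.4 and 18.9 in NeuP. Pkd2 (polycystin 2, a cation channel) had 0.895, 3.27 and 3.11, with 16.1 and 18.6 in NeuP. Pth1r, the receptor of parathyroid hormone, had 3.04, 7.29 and 7.92, and Ubox5, a ubiquitin ligase, 2.02, 4.59 and 6.54. Egr1, an immediate early transcription factor, had 33.5, 79.8 and 64.2, with 567 and 489 in NeuP. For Peg3, Pkd2 and Egr1 the order of levels was control, knockdown, NeuP. None of the 5 passed the test (limma adjusted p of 0.825 to 0.924). All of them but Pth1r had an ESC Ring1B peak within 2 kb of the start.

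At the other end, Id2, an inhibitor of basic helix-loop-helix factors, had 24.4 FPKM in control ESC, 9.75 and 11.8 with the hairpins, and 251 and 157 in NeuP. Krt7, a keratin, had 7.13, 3.20 and 2.96, with 0 in NeuP, and Anxa2, a phospholipid-binding annexin, 157, 88.8 and 78.6, with 47.4 and 43.3 in NeuP. Cd79b, a part of the B cell receptor, had 2.92, 1.16 and 1.35, with 0 in NeuP. None of these 4 passed the test (limma adjusted p = 0.825), and with 1 control library the spread of the control is unknown. Id2 had an ESC Ring1B peak within 2 kb of the start, while Krt7, Anxa2 and Cd79b had none.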

How the data were processed

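The sources are 9 peak lists and 1 RNA table, with positions in mm9. Per the submitters' processing notes, CASAVA 1.8.2, Bowtie2 2.1.0, STAR 2.2.0c, HOMER 4.6 and edgeR were used. Per the file headers, HOMER findPeaks called each ChIP list on 1 library, in the histone style for Cbx7 and Ring1B, with a peak size of 500 bp, an IgG library of ESC as control (for NeuP too), at least 4-fold over IgG and a Poisson p of 0.001. The sources used here do not give how the DamID replicates and GFP were combined. The lists hold no peak heights. The authors deposited FPKM for 24016 RefSeq transcripts. From 2520 to 2843 low FPKM values a library were checked for steps of 1 read, and 100% came out whole within 0.1 read, which gave the depths.

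Peaks were compared at 1 bp of overlap and placed within 2 kb of tabled starts (numpy 2.4.6, pandas 2.3.3 and scipy 1.17.1 in Python 3.11.15, with figures by matplotlib 3.10.9). RNA was tested on log2(FPKM + 1) with limma-trend (limma 3.58.1, R 4.3.3), with all 5 libraries in 1 fit, genes at 1 FPKM in at least 1 library (13750) and two-sided p-values adjusted by Benjamini-Hochberg over all genes, called under 0.05. The fit had 2 residual degrees of freedom plus 1.74 from moderation, the hairpins were taken as replicates, and the single control took its spread from the other groups. In voom on the recovered reads, 5879 genes were called in NeuP and 0 in the knockdown. The scripts were tested on simulated data.

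The sites and gene lists were chosen with earlier results of these data known. The genes named are the 8 of highest control FPKM, the 8 largest rises and 8 largest falls in NeuP, the 5 highest and 5 lowest mean changes in the knockdown with 1 sign in both hairpins, genes whose site overlaps Nup153 DamID (the 8 longest), genes nearest the longest sites, and list members. One gene that the rule names is not reported here. Genes whose site overlaps Ring1B in NeuP were added after their values were seen. Sequences are from RefSeq, GRCm38.p6.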

Additional observations from a re-analysis of the deposited data

How the results depend on the processing

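No paired analysis was possible because the knockdown and NeuP libraries share fewer than 2 replicate numbers, the control has 1 library, and the DamID lists are pooled. Rules for the sites moved their number from 6765 to between 5120 and 9687, or to 1519 when sites longer than the median length alone were kept (an alternative, like that of the median length alone and of the filter by group, chosen after seeing the data). The share within 2 kb of a start was 18.8% when 50 percent coverage was needed to count as shared, 11.8% without sites within 5 kb of ESC Ring1B, 27.2% with the control Ring1B list alone, 29.6% and 11.5% for sites longer than and at the median length, and 10.8% and 23.3% with windows of 1 and 5 kb. The NeuP Ring1B share was, in the same order, 3.39% with 50 percent coverage, 4.84% with the control list alone, 5.33% and 2.10% by length, and 5.07% with a gap of 1 kb. Nup153 DamID was at 0.801% away from ESC Ring1B, 1.89% with the control list alone, 1.45% for longer sites and 1.54% with the gap. Oct4 DamID was at 0.684% away from ESC Ring1B and 1.58% with the gap, and control Oct4 ChIP at 0.341% with the control list alone and 0.296% with the gap. The share of genes at 1 FPKM was 34.9% within 1 kb, 32.7% without ESC Ring1B near the start, 18.5% at 5 FPKM, and 43.0% and 42.1% with hairpins 2 and 4. Over all transcripts the share at 1 FPKM was 50.5% and 50.4% with hairpins 2 and 4, against 48.7% in control ESC.

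For NeuP, leaving out 1 library gave 1822 to 11245 called genes (5936 in all) and 122 to 546 near Cbx7-only sites (343 in all). With the compared groups alone, 1858 of all genes (13.5%) and 117 near these sites (18.9%) were called. When these groups also set the filter, 1641 (12.2%) and 101 (16.7%) were called. Without genes that had ESC Ring1B near the start, 175 of 331 were called (52.9%), beside 43.2% of all genes in the main fit. Fits with fewer libraries have fewer degrees of freedom. In the knockdown, no filter gave 230 and 8 calls (0.958% and 0.750%), and the ESC libraries alone in fit and filter 2710 and 109 (21.8% and 22.8%). With the ESC libraries alone in the fit and the filter unchanged, 0 genes were called. Among single genes, none of them called, Fam162a in NeuP (-0.28) turned to 0.11 with quantile normalization. Leaving out 1 library gave -1.29 to 0.72 for Fam162a, -0.26 to 0.46 for Hist3h2ba, -1.10 to 0.10 for Thbs1 and -0.51 to 0.08 for Trim7. Quantile normalization moved the median of all genes in NeuP from -0.26 to -0.06. The cause of these changes was not tested. Each ChIP list had 1 library behind it, with 4.99 M, 30.8 M and 9.95 M tags for Ring1B in control, hairpin 2 and hairpin 4 ESC. The lists hold no peak heights, so weaker Ring1B at these sites was not tested.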

Other observations

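Outside Nup153, the genes with the most Cbx7-only sites, named next, were mostly long. These genes, each with 7 or more sites, lay on chromosomes 6, 8 and 12, which held an excess of these sites. Ptprn2, a receptor-type phosphatase of secretory vesicles, held 9 in 792 kb, and Wwox, which spans a fragile site, 9 in 913 kb. Bcl11b, a zinc finger factor of T cells and neurons, held 8 in 93.0 kb, or 8.60 per 100 kb, against 1.14 in Ptprn2 and 0.986 in Wwox. Tenm3, a teneurin of synapses, held 8 in 449 kb, and Dgki, a diacylglycerol kinase, 7 in 454 kb. NeuP Ring1B had 5 peaks in Ptprn2, 3 in Wwox, 0 in Bcl11b, 2 in Tenm3 and 7 in Dgki. ESC Ring1B had peaks in each gene too, given here for control, hairpin 2 and hairpin 4. They numbered 6, 7 and 8 in Ptprn2, 4, 7 and 3 in Wwox, and 1, 3 and 4 in Bcl11b. In Tenm3 they numbered 5, 1 and 4, and in Dgki 3, 4 and 3. Of these genes, Dgki was at 0.0430 FPKM in control ESC and at 7.98 and 3.92 in NeuP, while Wwox was at 7.87 in control ESC and at 7.55 and 4.76 in NeuP. The genes with 6 sites each did not all lie on these chromosomes: Agap1 was on chromosome 1, Nr3c2 on chromosome 8 and Slc9a7 on X. In all, 162 genes held at least 3 sites and 22 at least 5.

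The fullest 1 Mb bin, chr12:109000001-110000000 in mm9, held 26 Cbx7-only sites and 10 shared ones over a stretch with Bcl11b and Eml1, where the median bin with any such site held 3. The next bin, chr12:110000001-111000000, held 17 over the imprinted Dlk1 and Meg3 genes. The longest Cbx7-only site, of 6628 bp, lay on the mitochondrial sequence (64 to 6691), and 3 sites lay on unplaced sequences. The longest on a nuclear chromosome, of 5220 bp, was 7.99 kb from Sec22b (33.0 FPKM in control ESC), and the next, of 3818 bp, 12.7 kb from Camta1 (3.30 FPKM). Neither overlapped NeuP Ring1B or DamID.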
